A study of Mus musculus with 2 samples.

Results

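Oxidative phosphorylation subunits were taken as every gene whose symbol in the deposited feature lists begins with Ndufa, Ndufb, Ndufc, Ndufs or Ndufv (complex I), is Sdha, Sdhb, Sdhc or Sdhd (complex II), begins with Uqcr (complex III), with Cox4 to Cox8 (complex IV) or with Atp5 (complex V), leaving out the assembly factors named Ndufaf and pseudogenes named with -ps. The rule found 85 of the 32285 genes: 36 of complex I, 4 of complex II, 8 of complex III, 20 of complex IV and 17 of complex V. Ndufa4 and Ndufa4l2 were counted with complex IV, to which NDUFA4 protein is now assigned. Of the 85 genes, 79 had at least 20 UMIs (unique molecular identifiers, each 1 captured RNA molecule) over both libraries and are called measured here. The other 6 were Cox4i2, Cox6a2, Cox7b2, Cox8b, Cox8c and Ndufa4l2, all genes of complex IV.

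The mitochondrial respiratory chain passes electrons from NADH (complex I) and succinate (complex II) through ubiquinone, complex III and cytochrome c to oxygen at complex IV, and the proton gradient built on the way drives ATP synthesis by complex V. All subunits of complex II and most of the others are encoded in the nucleus, and a small core of complexes I, III, IV and V is encoded in mitochondrial DNA, so a working complex needs both genomes. Naive T cells are small cells with little metabolic demand, dividing T cells build mitochondria before they split, and memory CD8 T cells are known for a large respiratory reserve.

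The study sequenced single live CD8 T cells, gated as CD45+ TCRB+ CD8a+, from the mammary fat pads (number 4) of untreated C57BL/6 mice that were either multiparous (parous below) or virgin, using 10x Genomics 5′ chemistry. Each group was 1 library from a pool of 5 or more mice, so animals cannot be told apart and nothing below was tested between groups. Age and the time since the last pregnancy were not stated in the labels. Intervals are exact 95% intervals and cover counting error only.

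The parous library held 4927 barcodes and 14676415 UMIs and the virgin library 2526 barcodes and 20166425 UMIs, and 18 barcode sequences occurred in both. Of the barcodes, 3019 parous and 2511 virgin ones passed the cell filter, at a median depth of 4108 UMIs (parous) and 7001 UMIs (virgin). After a small myeloid cluster was set aside (26 parous and 9 virgin cells), 2993 parous and 2502 virgin cells were compared. The T cell gene Cd3e was seen in 95.1% of the parous cells (virgin 98.4%) and Cd4 in 0.368% (virgin 0.0799%). The gated CD8 alpha chain Cd8a was seen in 76.7% of the parous cells (virgin 87.0%) and the CD8 beta chain Cd8b1 in 79.9% (virgin 95.3%). The markers thus mostly fit the sort, but both CD8 chains were seen in fewer of the parous cells. Whether depth or the makeup of the cells lay behind this was not tested. Cycling cells made up 2.24% of parous and 6.12% of virgin cells, and their marker list summed to 169 CPM (counts per 1000000 UMIs) in parous and 601 CPM in virgin cells. Of the marker lists of other cell types, B cell markers summed to 89.3 CPM in parous and 121 CPM in virgin cells, gamma-delta T cell markers to 83.4 CPM in parous and 45.5 CPM in virgin cells, endothelial markers to 82.6 CPM in parous and 67.2 CPM in virgin cells, and CD4 T cell markers to 59.8 CPM in parous and 74.4 CPM in virgin cells. At 0 were 3 B cell markers in parous cells, and 1 B cell and 1 gamma-delta marker in virgin cells. The 8 myeloid markers summed to 33.0 CPM in parous and 40.0 CPM in virgin cells with 1 marker at 0 in each, and the 8 mammary epithelial markers to 13.7 CPM in parous cells (3 at 0) and 4.86 CPM in virgin cells (6 at 0), and the adipocyte, fibroblast and erythroid lists were at 21.2 CPM or less in either library. Their part in the results was not tested.

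The question put to the subunit genes as a whole was whether parous and virgin CD8 T cells spend the same part of their RNA on them. The 85 genes together made up 2.20% of UMIs in parous cells and 2.06% in virgin cells, a ratio of 1.07 (95% interval 1.06 to 1.07) and a log2 ratio of 0.09. The median log2 ratio of the 79 measured genes was 0.04, whereas the median of all 12632 measured genes was -0.14. Of the 79, 33 had a ratio below 0, against 65.5% of all genes. None of the 79 was at least 1.5-fold higher in parous cells, where 6.86% of all genes were, and 3 were at least 1.5-fold lower, where 15.1% of all genes were. Under median-of-ratios scaling, which moves every log2 ratio up by 0.13, these shares of all genes became 8.86% higher and 11.0% lower and the members' counts stayed at 0 and 3. Among 754 other genes with levels between 114 and 357 CPM, the middle range of the members, the median was -0.01 and 3.85% were past 1.5-fold in each direction. The shift of the sum is thus small, and the members' ratios lay in a narrow band, with a middle range from -0.06 to 0.12, against -0.41 to 0.11 for all genes.

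**Figure D1:**
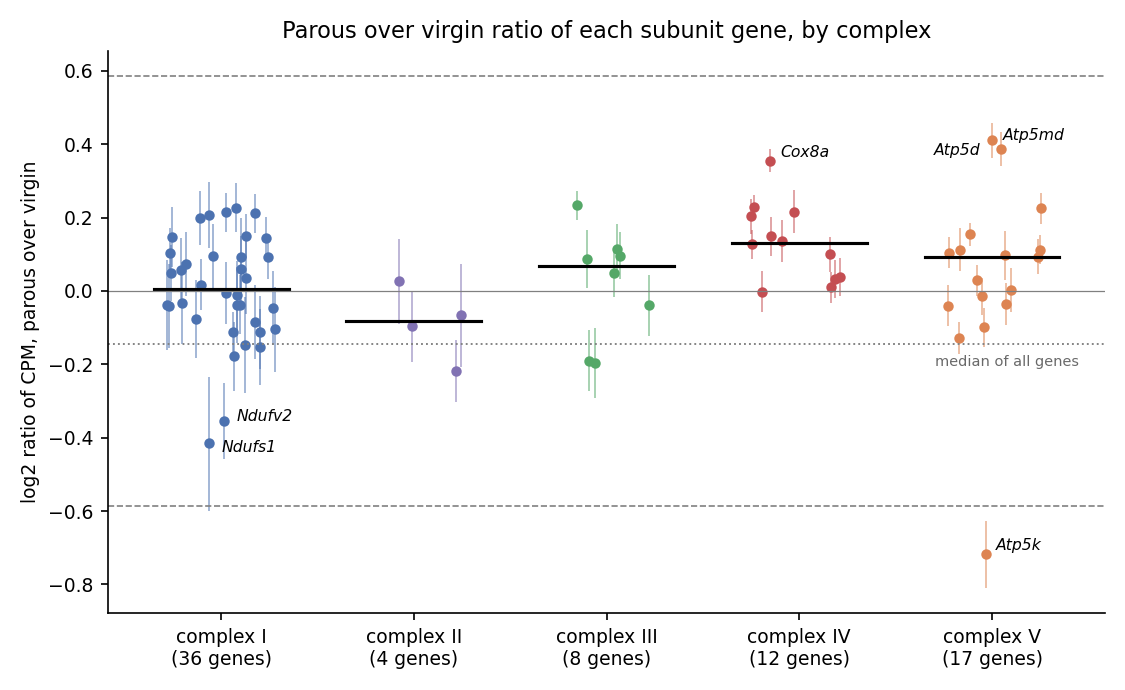
Log2 ratio of CPM in parous over virgin CD8 T cells (vertical axis) for each of the 77 subunit genes with at least 1000 UMIs over both libraries, grouped by complex along the horizontal axis; vertical lines are 95% counting intervals, black bars the medians of the plotted genes, dashed lines 1.5-fold and the dotted line the median of all genes. Nearly all genes lie within 1.5-fold, and Atp5k at -0.72 lies outside it.

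The 5 complexes did not lean equally. Summed UMIs of complex IV had the largest ratio, with 6284 CPM in parous cells and 5627 CPM in virgin cells (1.12, 1.11 to 1.13). Complex V had 7801 CPM in parous and 7351 CPM in virgin cells (1.06, 1.05 to 1.07). Complex III had 1943 CPM in parous and 1830 CPM in virgin cells (1.06, 1.05 to 1.08). Complex I was nearest to parity, with 5641 CPM in parous and 5439 CPM in virgin cells (1.04, 1.03 to 1.05). Complex II went the other way, with 372 CPM in parous and 403 CPM in virgin cells (0.923, 0.891 to 0.957), though under median-of-ratios scaling its log2 ratio turned to 0.02.

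Complex I is built from a catalytic core, which binds NADH and carries the electrons over iron-sulfur clusters, and from accessory subunits around it. All 36 of its genes were measured, 18 of them below 0. The lowest ratios belonged to 2 core genes. Ndufs1, the largest iron-sulfur subunit, had 27.6 CPM in parous and 36.9 CPM in virgin cells (log2 ratio -0.42; it overlaps Eef1b2 and Ino80dos on the other strand, which makes its count uncertain), and Ndufv2, another iron-sulfur subunit of the NADH-binding arm, had 85.3 CPM in parous and 109 CPM in virgin cells (-0.35). The accessory genes Ndufc2 (-0.18) and Ndufab1 (-0.15) came next. The core gene Ndufv1, which binds NADH and flavin, had 57.5 CPM in parous and 63.7 CPM in virgin cells (-0.15). Another core gene, Ndufs7, stood on the other side, with 135 CPM in parous and 117 CPM in virgin cells (0.21). Accessory genes held the highest ratios of the complex. Ndufa1 had 247 CPM in parous and 211 CPM in virgin cells (0.23), Ndufa6 372 CPM in parous and 321 CPM in virgin cells (0.21), and Ndufa13 390 CPM in parous and 337 CPM in virgin cells (0.21). Ndufa13 had the most UMIs of the complex in the parous library, and Ndufa3, with 325 CPM in parous and 351 CPM in virgin cells (-0.11), in the virgin library.

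Complex II, succinate dehydrogenase, is also an enzyme of the tricarboxylic acid cycle. Its iron-sulfur subunit Sdhb had 137 CPM in parous and 159 CPM in virgin cells (-0.22, ratio interval 0.811 to 0.911). The flavoprotein gene Sdha had 108 CPM in parous and 115 CPM in virgin cells (-0.10). For the membrane anchors the intervals held 1: Sdhc had 51.4 CPM in parous and 53.8 CPM in virgin cells (-0.07), and Sdhd 75.9 CPM in parous and 74.5 CPM in virgin cells (0.03). The lower sum of the complex thus came mainly from Sdhb.

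In complex III the small and the large subunits found by the rule parted. Cytochrome c1 (Cyc1), also a subunit of this complex, falls outside the symbol rule and is not in its sum. Uqcrh, the acidic hinge protein next to cytochrome c1 and the gene of this complex with the most UMIs, had 685 CPM in parous and 582 CPM in virgin cells (0.23), and Uqcrq, a small membrane subunit, had 259 CPM in parous and 242 CPM in virgin cells (0.10). The core proteins Uqcrc1 and Uqcrc2 were lower, with 138 CPM in parous and 157 CPM in virgin cells for Uqcrc1 (-0.19) and 108 CPM in parous and 124 CPM in virgin cells for Uqcrc2 (-0.20). Uqcrfs1, the Rieske iron-sulfur protein, had 143 CPM in parous and 147 CPM in virgin cells (-0.04), with an interval that held 1.

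Complex IV, cytochrome c oxidase, surrounds its mtDNA-encoded core with nuclear subunits, several of which have tissue-specific isoforms. Cox8a, the member with most UMIs in the parous library, had 1128 CPM in parous and 882 CPM in virgin cells (0.35, ratio interval 1.25 to 1.31). Cox4i1 had 927 CPM in parous and 792 CPM in virgin cells (0.23). Ndufa4 had 476 CPM in parous and 413 CPM in virgin cells (0.20), and Cox6a1 365 CPM in parous and 329 CPM in virgin cells (0.15). Cox5a, at 382 CPM in parous and 373 CPM in virgin cells, and Cox6b1, at 381 CPM in parous and 371 CPM in virgin cells, were both within 0.04 of 0. The isoforms known from other tissues were barely seen. Cox4i2 (lung) had 3 parous and 4 virgin UMIs, Cox6a2 (heart and muscle) 3 parous and 14 virgin UMIs, and Ndufa4l2 4 parous and 3 virgin UMIs. Cox7b2 had 1 parous UMI and no virgin UMI, and Cox8b (heart and muscle) and Cox8c (testis) had none. Cox4i1, Cox6a1, Cox6b1, Cox7b, Cox8a and Ndufa4 each held at least 99.65% of their family's UMIs in each library.

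Both complex IV genes past 1.5-fold were among these rare isoforms. Cox7a1, the heart and muscle form, had 3 parous and 18 virgin UMIs (-1.82, ratio interval 0.0472 to 0.857). Cox6b2, the testis form, had 9 parous and 26 virgin UMIs (-0.89, 0.214 to 1.14), an interval that holds 1. Both rest on few UMIs. In the COX7A family the UMIs were split between Cox7a2, with 50.02% in parous and 47.6% in virgin cells, and Cox7a2l, with 49.9% in parous and 52.3% in virgin cells. Cox7a2l encodes a relative of the COX7A subunits. Cox7a2l had 333 CPM in parous and 333 CPM in virgin cells (-0.002), and Cox7a2 had 333 CPM in parous and 303 CPM in virgin cells (0.14).

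Complex V, the ATP synthase, consists of the catalytic F1 head, the central and peripheral stalks, the membrane ring of c subunits, and small membrane subunits at which synthases pair. In the head, Atp5a1 (alpha) had 389 CPM in parous and 393 CPM in virgin cells (-0.01) and Atp5b (beta, catalytic) 516 CPM in parous and 564 CPM in virgin cells (-0.13). In the central stalk, Atp5d (delta) had 532 CPM in parous and 407 CPM in virgin cells (0.39), and Atp5e (epsilon), the member with most UMIs in the virgin library, 1046 CPM in parous and 940 CPM in virgin cells (0.15). The small membrane subunits held both extremes of the complex. Atp5md, also called DAPIT, had 498 CPM in parous and 375 CPM in virgin cells (0.41, ratio interval 1.28 to 1.37), the largest log2 ratio of all measured members. Atp5k, subunit e, had 1394 UMIs or 105 CPM in parous cells and 3441 UMIs or 173 CPM in virgin cells (-0.72, ratio interval 0.571 to 0.647). Among members with at least 1000 UMIs, no other was past 1.5-fold. The genes of DAPIT and of subunit e thus differed from their complex in opposite directions, although both proteins sit at the membrane part where synthases pair.

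**Figure D2:**
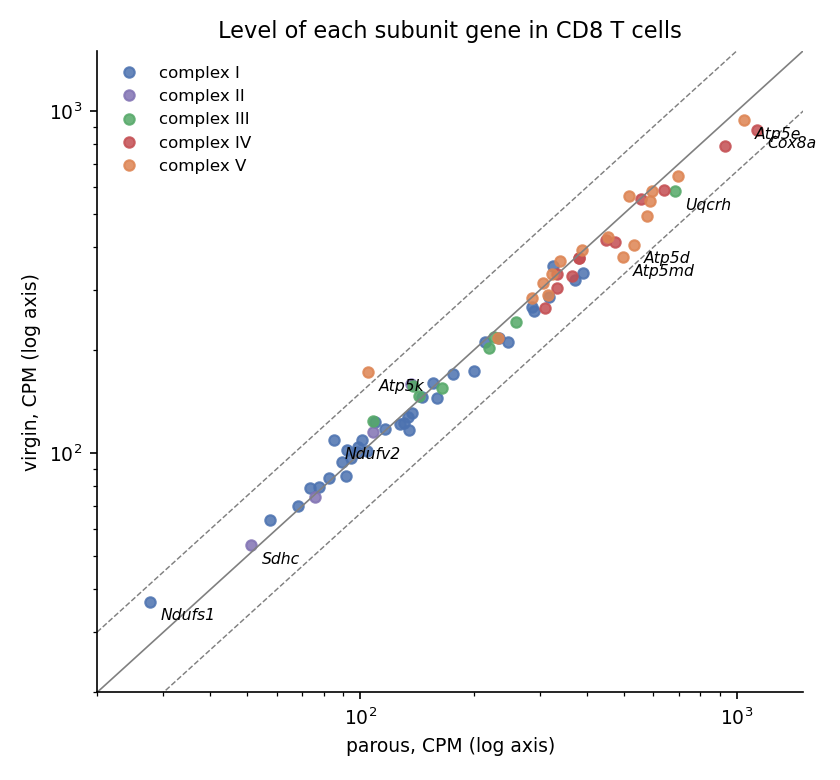
Level in virgin cells (vertical axis, CPM, log axis) against the level in parous cells (horizontal axis, CPM, log axis) for the 77 subunit genes with at least 1000 UMIs, coloured by complex; the solid line marks equal levels and the dashed lines 1.5-fold. Cox8a and Atp5e stand at the upper end, Ndufs1 at the lower end, and Atp5k is the plotted gene outside the dashed lines.

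Cell by cell the direction was the same. The share of a cell's UMIs that came from the members had a median of 2.16% in parous and 1.90% in virgin cells, with middle ranges of 1.85% to 2.48% in parous and 1.64% to 2.22% in virgin cells, so the cells of both libraries overlapped widely. A median parous cell held 87 member UMIs from 43 different members and a median virgin cell 127 UMIs from 51 members, and no cell lacked them. With every cell thinned to 1400 UMIs (2868 parous and 2488 virgin cells) the mean share was 2.18% in parous and 1.97% in virgin cells. The gap is wider per cell than in the sums, in which cells with many UMIs weigh more.

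T cell states were compared in clusters built without the members, so that the members could not set them. The states named from their markers were naive or central memory-like cells (cluster 0, with Ccr7 and Lef1; 484 parous and 982 virgin cells), NK or innate-like T cells (cluster 2, with Klra7 and Ikzf2; 337 parous and 203 virgin), tissue-resident memory-like cells (cluster 6, with Cxcr6, Zfp683 and P2rx7; 139 parous and 130 virgin), circulating effector-like cells (cluster 7, with Klrg1, S1pr5 and Cx3cr1; 86 parous and 179 virgin), cycling cells (cluster 9, with Mki67; 67 parous and 153 virgin) and interferon-responding cells (cluster 10, with Ifit1; 42 parous and 72 virgin). Other clusters stayed without a name. These were cluster 1, led by Gzmm, Dipk2a and Ccr2 (693 parous and 373 virgin cells), cluster 3, led by Pdcd1, Adgrg1 and Gzmk (498 parous and 29 virgin), cluster 4, led by Ier3, Epha3 and Ccl3 (166 parous and 292 virgin), cluster 5, led by Fcer1g and Gzmc (315 parous and 1 virgin), and cluster 8, low in RNA (158 parous and 85 virgin). In clusters 3, 4 and 5 the leading genes held as many markers of another type or more. Clusters 1 and 8 each had 1 marker of their best list, Ly6c2 and Fabp4, where at least 3 were needed. Fabp4 is from the endothelial list. With virgin UMIs thinned, Cd3e was seen in 71.2% of cluster 8 cells. Of the 15 tissue-residency markers, 7 met the naming thresholds in cluster 6, without Itgae. In cluster 3 it was 8 and in cluster 5 it was 11, both with Itgae, so the named cluster holds only part of the resident-like cells. In cluster 2, 6 of the 9 NK or innate-like markers met them, without Tyrobp and Fcer1g, which were among the leading genes of cluster 5. Clusters 3 and 5 lay almost wholly in the parous library, so state and library cannot be told apart there.

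The state of a cell went with a far wider range of member levels than the library did. Naive or central memory-like cells stood lowest, with members at 1.78% of UMIs in parous and 1.70% in virgin cells, and cycling cells highest, with 3.001% in parous and 2.97% in virgin cells. These are shares of all UMIs. Ribosomal protein genes took 42.9% of UMIs in parous and 39.4% in virgin naive or central memory-like cells, more than in any other cluster. The order was not recomputed without them, and their part in it was not tested. Between them came the NK or innate-like cells (2.10% in parous and 1.93% in virgin), the interferon-responding cells (2.14% in parous and 2.08% in virgin), cluster 1 (2.22% in parous and 2.06% in virgin) and cluster 4 (2.23% in parous and 2.10% in virgin). Tissue-resident memory-like cells reached 2.38% in parous and 2.13% in virgin cells, and circulating effector-like cells 2.46% in parous and 2.21% in virgin cells. Cluster 3 had 2.34% in parous and 2.17% in virgin cells, cluster 8 had 2.08% in parous and 2.07% in virgin cells, and cluster 5 had 2.43% in parous cells. In the order by parous level, neighbours had overlapping counting intervals from cluster 8 through the NK or innate-like, interferon-responding and cluster 1 cells to cluster 4, and again from cluster 3 through the tissue-resident memory-like cells and cluster 5 to the circulating effector-like cells. The naive or central memory-like cells, the cycling cells and the step between clusters 4 and 3 stood outside these intervals.

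**Figure D3:**
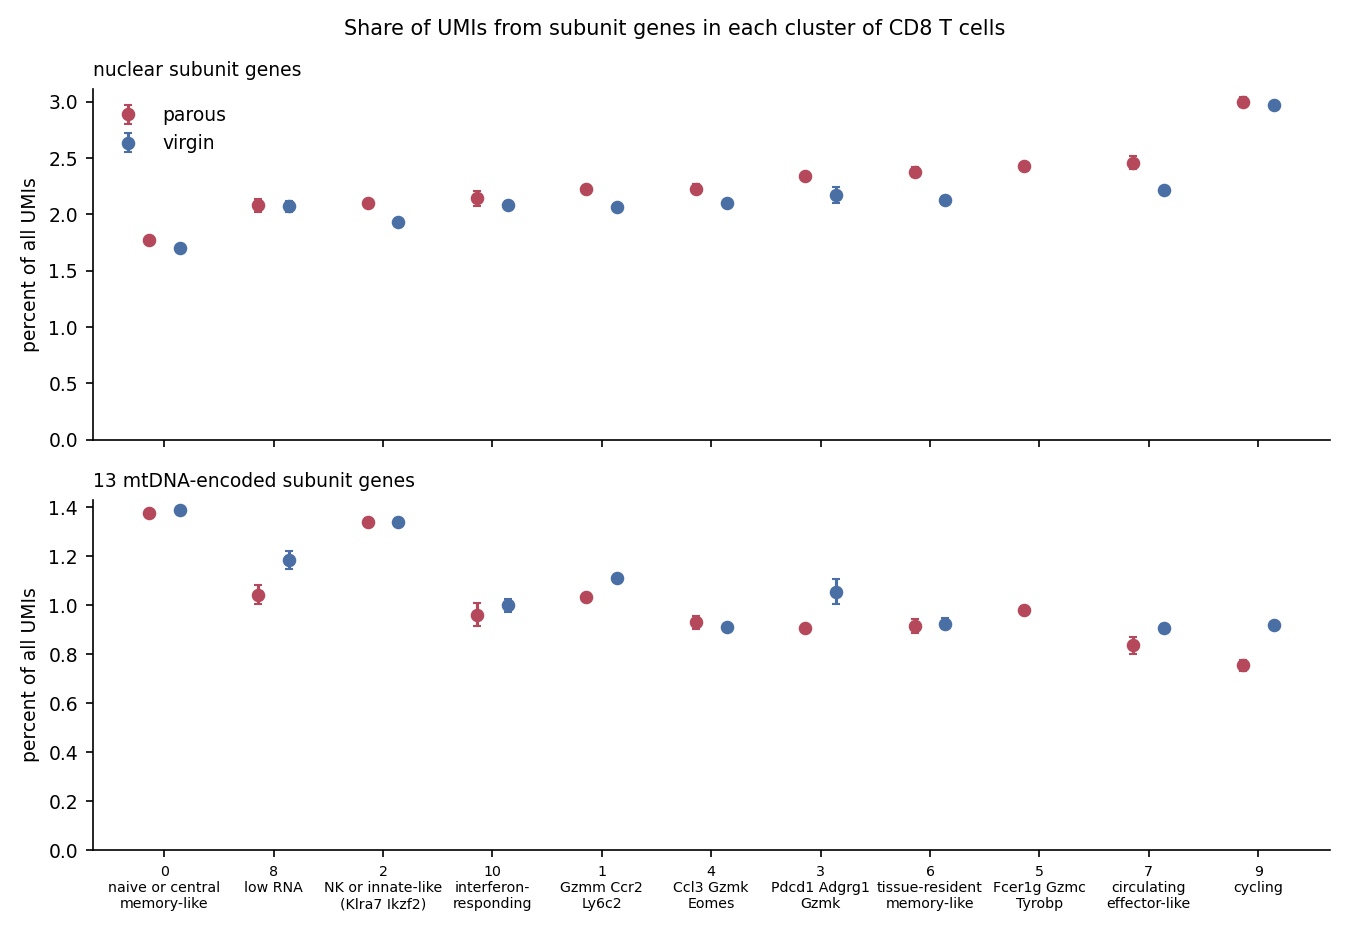
Percent of all UMIs (vertical axes) from the nuclear subunit genes (upper panel) and from the 13 mtDNA-encoded subunit genes (lower panel) in each cluster of CD8 T cells (horizontal axis, ordered by the parous level in the upper panel), with parous left of virgin and 95% counting intervals. Nuclear subunits span 1.70% to 3.001% and are lowest in naive or central memory-like and highest in cycling cells, whereas the mtDNA-encoded subunits are lowest in parous cycling cells at 0.756%.

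Within the states, the parous cells held the higher share in 10 of 10 clusters with enough cells of both libraries, and the interval of the ratio lay above 1 in 7 of them. With cells thinned to 1400 UMIs the parous share was the higher one in 9 of 10, the exception being cluster 8 (2.04% in parous and 2.08% in virgin cells). Ratios of the sums ran up to 1.12 in tissue-resident memory-like cells (1.09 to 1.14) and 1.11 in circulating effector-like cells (1.08 to 1.14). The ratio was 1.04 in naive or central memory-like cells (1.03 to 1.05), 1.09 in NK or innate-like cells (1.08 to 1.11), 1.01 in cycling cells (0.993 to 1.03), 1.03 in interferon-responding cells (0.993 to 1.07) and 1.004 in cluster 8 (0.969 to 1.04). Complex IV was higher in parous cells in 10 of 10 clusters, complex V in 9, complexes I and III in 8 each, and complex II in 2. The intervals of complex II lay below 1 in 3 clusters and above 1 in none.

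Single members within a state seldom passed 1.5-fold, and in each of the 10 clusters the members' share past 1.5-fold was below that of all genes in both directions. Other genes at the members' levels were not compared within clusters. Over all cells, 3.85% of 754 such genes were past 1.5-fold in each direction, so the gap to all genes is not shown to be particular to the members. In naive or central memory-like cells none of 77 measured members was higher in parous cells (4.32% of all genes) and 1 was lower (17.2% of all genes). That gene was Atp5k, with 74.8 CPM in parous and 122 CPM in virgin cells, followed by Ndufs5 (-0.45) and Sdha (-0.37), while Sdhd (0.39), Cox4i1 (0.34) and Ndufa1 (0.33) stood at the other end. In NK or innate-like cells none was higher (4.66% of all genes) and 1 lower (16.9%), again Atp5k, with 85.02 CPM in parous and 167 CPM in virgin cells. Behind it came Ndufv1 (-0.39) and Ndufv2 (-0.37), and Ndufa11 (0.45), Atp5d (0.39) and Ndufb2 (0.39) led in the other direction.

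Tissue-resident memory-like cells had 2 members higher in parous cells (9.69% of all genes) and 1 lower (19.4%). Ndufc1, a small accessory subunit of complex I, had 167 CPM in parous and 96.7 CPM in virgin cells (0.79, from 81 parous and 77 virgin UMIs), Ndufs8, an iron-sulfur subunit, 118 CPM in parous and 77.9 CPM in virgin cells (0.60), and Atp5md 699 CPM in parous and 480 CPM in virgin cells (0.54). At the other end Ndufs1 had 7 parous and 40 virgin UMIs (-1.71, ratio interval 0.109 to 0.650), followed by Ndufa3 (-0.48) and Ndufv2 (-0.46). Circulating effector-like cells had 1 member higher (10.2% of all genes) and none lower (20.4%). The higher one was again Ndufc1, with 176 CPM in parous and 114 CPM in virgin cells, then Uqcr11 (0.55) and Ndufa1 (0.51), with Ndufs3 (-0.55), Atp5k (-0.35) and Ndufa8 (-0.34) lowest.

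Cycling cells had no member higher in parous cells (10.2% of all genes) and 1 lower (19.2%), Atp5k, with 197 CPM in parous and 297 CPM in virgin cells. Ndufs1 (-0.58) and Ndufa12 (-0.52) came next, and Ndufa6 (0.54), Uqcrh (0.41) and Atp5h (0.40), a peripheral stalk subunit, were the highest. Interferon-responding cells, with few cells, had 2 members higher (9.94% of all genes) and 6 lower (23.2%). Ndufb5 (0.65), Ndufb2 (0.61) and Ndufa9 (0.55) were highest, and Uqcrc2 (-0.90), Ndufs3 (-0.80) and Ndufs1 (-0.78) lowest, each from 43 parous UMIs or fewer. Among the unnamed clusters, cluster 1 had 0 higher (3.97% of all genes) and 1 lower (15.9%), cluster 4 had 0 higher (6.29%) and 3 lower (17.1%), cluster 3 had 7 higher (16.4%) and 2 lower (25.9%), and cluster 8 had 1 higher (14.6%) and 8 lower (15.8%).

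Some members named above for their ratios over all cells kept their direction over the clusters. The clusters are parts of the same libraries that gave those ratios, so such agreement is in part built in. How many of the other members, or of all genes, kept theirs was not counted. Atp5k was lower in parous cells in 10 of 10 clusters, with intervals below 1 in 6 of them, and its log2 ratio ran from -0.98 in cluster 8 to -0.01 in interferon-responding cells. Atp5md was higher in 8 of 10 clusters and its interval lay above 1 in 4. Cox8a and Atp5d were each higher in 10 of 10 clusters with intervals above 1 in 8. Ndufv2 was lower in 7 of 10, with intervals below 1 in 4, and Ndufs1 in 8 of 10, with intervals below 1 in 3. No annotated gene overlaps Atp5k on either strand.

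Within each library the step to the cycling state was the widest. In parous cells the members together were 1.69-fold higher in cycling than in naive or central memory-like cells (1.66 to 1.72), and in virgin cells 1.75-fold (1.73 to 1.76). Of 77 members, 59 were at least 1.5-fold higher in parous cycling cells, where 38.5% of all genes were, and 1 was at least 1.5-fold lower, where 15.2% were. In virgin cycling cells 59 were higher (36.5% of all genes) and 2 lower (19.1%). The median log2 ratio was 0.82 in parous and 0.88 in virgin cells, against 0.35 in parous and 0.27 in virgin cells over all genes. The higher members came from all complexes: 29 parous and 27 virgin of 36 in complex I, 3 parous and 3 virgin of 4 in complex II, 6 parous and 5 virgin of 8 in complex III, 9 parous and 10 virgin of 12 in complex IV, and 12 parous and 14 virgin of 17 in complex V. Cycling cells also differed in depth, with medians of 8187 UMIs per cell against 4548 in naive or central memory-like cells of the parous library, and 17738 against 7366 in those of the virgin library. Ribosomal protein genes took 22.9% of UMIs in cycling and 42.9% in naive or central memory-like parous cells, and 18.7% in cycling and 39.4% in naive or central memory-like virgin cells. The part of depth and of this ribosomal share in the members' step was not tested.

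Ndufb7, an accessory subunit of complex I, led in the parous library with 433 CPM in cycling and 138 CPM in naive or central memory-like cells (1.65), and in the virgin library it had 419 CPM in cycling and 128 CPM in naive or central memory-like cells (1.71). Cox5a, a matrix-side subunit of complex IV, led in the virgin library, with 831 CPM in cycling and 227 CPM in naive or central memory-like cells (1.87), and in the parous library it had 676 CPM in cycling and 251 CPM in naive or central memory-like cells (1.43). Cox5b, its partner on the matrix side, had 836 CPM in cycling and 292 CPM in naive or central memory-like parous cells (1.52), and 771 CPM in cycling and 290 CPM in naive or central memory-like virgin cells (1.41).

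The exceptions were the same in both libraries. Cox7a2l had 214 CPM in cycling and 494 CPM in naive or central memory-like parous cells (-1.20), and 190 CPM in cycling and 454 CPM in naive or central memory-like virgin cells (-1.25). Ndufa6, an accessory subunit of complex I, had 339 CPM in cycling and 407 CPM in naive or central memory-like parous cells (-0.26), and 233 CPM in cycling and 362 CPM in naive or central memory-like virgin cells (-0.64). Uqcrh had 685 CPM in cycling and 734 CPM in naive or central memory-like parous cells (-0.10), and 516 CPM in cycling and 623 CPM in naive or central memory-like virgin cells (-0.27). The other 74 of 77 members were above 0 in each library.

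**Figure D4:**
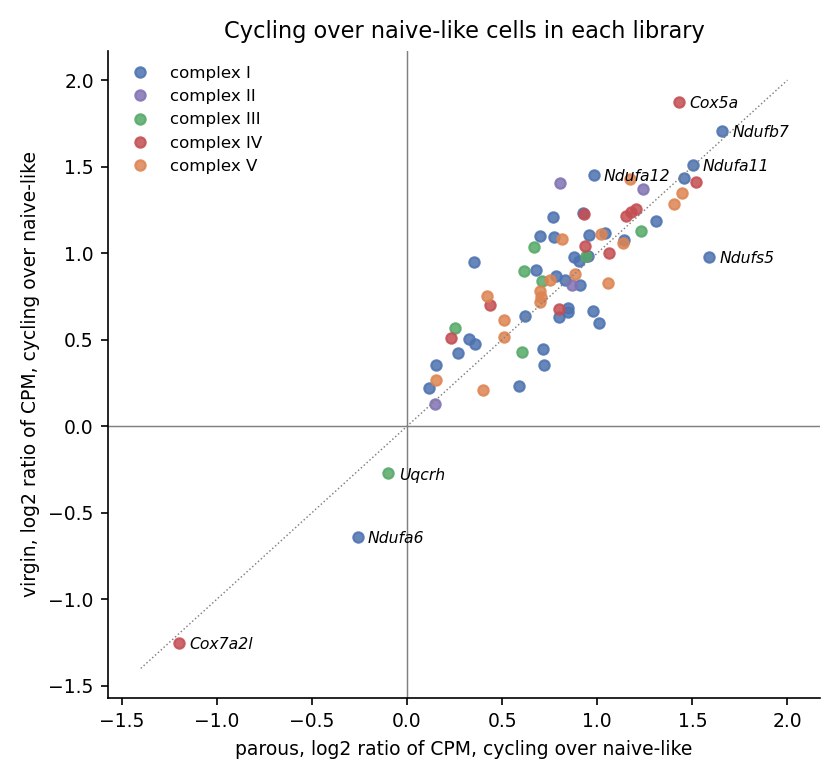
Log2 ratio of CPM in cycling over naive or central memory-like cells in the virgin library (vertical axis) against the same ratio in the parous library (horizontal axis), 1 point per subunit gene with at least 1000 UMIs, coloured by complex; the dotted line marks equal ratios. Nearly all genes lie above 0 on both axes, with Cox7a2l at -1.20 in parous and -1.25 in virgin cells at the other end.

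In the memory and effector states the summed share was also above that of naive or central memory-like cells, by a smaller step, and the counts of members past 1.5-fold were closer to those of all genes. Tissue-resident memory-like cells held 1.34 times the members' share of naive or central memory-like cells in the parous library (1.31 to 1.37) and 1.25 times in the virgin library (1.23 to 1.27). In them 30 of 77 members were at least 1.5-fold higher and 2 lower in the parous library (37.1% and 11.1% of all genes), and 20 higher and 1 lower in the virgin library (35.9% and 14.3% of all genes). The median log2 ratio of the members there was 0.52 (parous) and 0.36 (virgin), against 0.38 (parous) and 0.35 (virgin) over all genes. Circulating effector-like cells held 1.39 times the share in the parous library (1.35 to 1.42) and 1.30 times in the virgin library (1.28 to 1.32), with 37 higher and 1 lower in the parous library (39.1% and 14.8% of all genes) and 15 higher and 0 lower in the virgin library (34.4% and 15.3% of all genes). Their medians were 0.57 (parous) and 0.43 (virgin), against 0.37 (parous) and 0.32 (virgin) over all genes. In the virgin library the share of members past 1.5-fold higher was thus below that of all genes in both states. Ribosomal protein genes took 24.1% of UMIs in parous and 18.9% in virgin tissue-resident memory-like cells, and 22.4% in parous and 19.6% in virgin circulating effector-like cells, below the naive or central memory-like shares given above, and their part in the step was not tested. In tissue-resident memory-like cells Atp5md had the largest parous step, with 699 CPM there and 297 CPM in naive or central memory-like cells (1.24), and Ndufb8 the largest virgin step, with 183 CPM there and 84.0 CPM in naive or central memory-like cells (1.13). In circulating effector-like cells Uqcr11 had the largest parous step, with 241 CPM there and 99.4 CPM in naive or central memory-like cells (1.28), and Atp5h the largest virgin step, with 804 CPM there and 407 CPM in naive or central memory-like cells (0.98). Cox7a2l was again below its naive or central memory-like level in both states, by log2 ratios of -0.91 in parous and -0.72 in virgin tissue-resident memory-like cells and of -0.73 in parous and -0.53 in virgin circulating effector-like cells. Cluster 5 held 1.37 times the share of parous naive or central memory-like cells (1.35 to 1.39), cluster 3 held 1.32 times among parous and 1.28 times among virgin cells, and the NK or innate-like cells 1.19 times among parous and 1.13 times among virgin cells.

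Across the 10 clusters present in both libraries most members followed the sum of the others. Over the 77 members with at least 1000 UMIs, the median Pearson r between a member's log2 CPM and that of the other members summed was 0.79 over the 10 parous clusters and 0.76 over the 10 virgin clusters, as a description over points that share libraries and depth. Cycling cells held the highest level for 48 of 77 members over parous and 61 over virgin clusters, and naive or central memory-like cells the lowest for 51 over parous and 44 over virgin clusters. The same r and counts were not worked out for all genes. In cycling cells 65.8% of all genes in parous and 61.7% in virgin stood above their naive or central memory-like level. The likeness is thus not shown to be particular to the members. Cox5a (r of 0.98 in parous and 0.92 in virgin) was most like the rest over parous clusters, and Cox5b (0.96 in parous and 0.98 in virgin) over virgin clusters. Cox7a2l (-0.71 in parous and -0.81 in virgin), Ndufa6 (-0.30 in parous and -0.78 in virgin) and Uqcrh (-0.18 in parous and -0.48 in virgin) were least like it. Uqcrh was nearly level, within 0.17 log2 units over the parous and 0.36 over the virgin clusters, whereas Cox7a2l ranged over 1.31 in the parous and 1.25 in the virgin clusters.

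Subunit c of the ATP synthase ring is made from 3 genes, Atp5g1, Atp5g2 and Atp5g3, that differ in their targeting peptides and give the same mature protein. Their shares are of captured molecules, and whether the 3 transcripts are captured equally well was not tested. Over all cells Atp5g2 held 43.4% of their UMIs in parous and 42.4% in virgin cells, Atp5g3 held 37.1% in parous and 38.4% in virgin cells, and Atp5g1 held 19.6% in parous and 19.1% in virgin cells. The makeup moved with state more than with library. Naive or central memory-like cells had the most Atp5g2 (50.03% in parous and 50.4% in virgin) and the least Atp5g3 (31.9% in parous and 32.0% in virgin). In cycling cells Atp5g2 held 40.7% in parous and 33.4% in virgin cells and Atp5g3 held 44.4% in parous and 49.5% in virgin cells. In tissue-resident memory-like cells Atp5g2 held 35.4% in parous and 34.7% in virgin cells and Atp5g3 held 44.5% in parous and 45.2% in virgin cells. Atp5g1 stayed between 14.9% and 21.0% in the parous and between 17.1% and 22.9% in the virgin clusters.

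**Figure D5:**
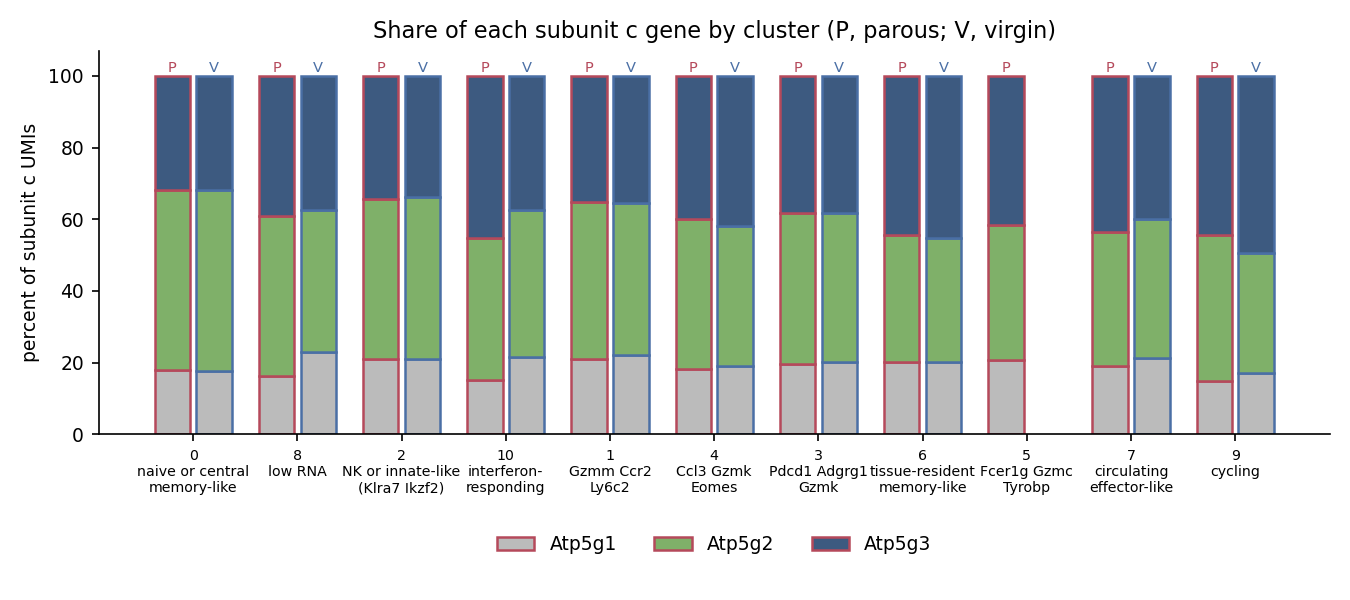
Percent of subunit c UMIs (vertical axis, stacked bars) from Atp5g1, Atp5g2 and Atp5g3 in each cluster (horizontal axis), with parous (P) left of virgin (V). The Atp5g2 part is largest in naive or central memory-like cells, at 50.03% in parous and 50.4% in virgin cells.

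Promoter sequence was looked at for the genes that stood apart: Atp5k, which differed between the libraries, Cox7a2l, which ran against the other members over states, and Cox5b, which followed them closely. The 250 bases before the RefSeq start are given in the direction of transcription, on build GRCm38.p6, at chr5:108434400-108434649 (minus strand) for Atp5k, chr17:83514334-83514583 (minus strand) for Cox7a2l and chr1:36691237-36691486 (plus strand) for Cox5b. For all 3 genes the RefSeq start lies inside the gene as GENCODE draws it. The Cox7a2l window lies wholly inside its GENCODE gene, which runs from 83501918 to 83517330. The Atp5k and Cox5b windows hold part of theirs. Other starts may lie outside the windows. Capitals mark the motifs found, GCATGCG on both strands (the core bound by nuclear respiratory factor 1) in Atp5k and GGGCGG (the SP1 box) in Cox7a2l, and Cox5b had none of the motifs searched.
Atp5k: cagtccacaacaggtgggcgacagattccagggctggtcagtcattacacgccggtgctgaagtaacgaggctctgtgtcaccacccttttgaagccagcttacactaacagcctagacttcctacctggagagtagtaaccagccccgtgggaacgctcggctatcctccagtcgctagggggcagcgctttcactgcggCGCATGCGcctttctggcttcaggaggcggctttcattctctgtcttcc
Cox7a2l: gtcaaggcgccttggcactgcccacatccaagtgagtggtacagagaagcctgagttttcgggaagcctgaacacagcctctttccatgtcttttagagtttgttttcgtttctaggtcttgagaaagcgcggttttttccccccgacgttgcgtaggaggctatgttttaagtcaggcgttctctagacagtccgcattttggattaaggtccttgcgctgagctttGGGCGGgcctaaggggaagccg
Cox5b: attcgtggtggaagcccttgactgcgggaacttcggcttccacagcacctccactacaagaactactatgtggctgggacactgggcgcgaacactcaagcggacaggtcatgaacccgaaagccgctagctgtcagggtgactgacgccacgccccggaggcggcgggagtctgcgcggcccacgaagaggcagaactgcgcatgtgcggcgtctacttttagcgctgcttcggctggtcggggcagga

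Core motifs of factors known to act on respiratory genes were counted on both strands in windows from 250 bases before to 50 after the start, found for 68 of the 85 members in the RefSeq table and for 9523 other measured genes. The nuclear respiratory factor 1 core GCATGCG was in 11 of 68 members (16.2%), against 7.41% of the other genes. The estrogen-related receptor core AAGGTCA was in 8 members (11.8%), against 3.87%, and the YY1 core ATGGCGG in 10 members (14.7%), against 9.67%. The ETS core CCGGAAG was in 17 members, against 21.3% of the other genes, and the SP1 box GGGCGG in 28 members (41.2%), against 67.6%. None of these motifs contains another. In Atp5k the ETS and estrogen-related receptor cores lie in the 50 bases after the start, which are not printed. These are matches of letters only. The members with the nuclear respiratory factor 1 core did not move as a group between the libraries: Atp5k (-0.72), Sdhb (-0.22), Uqcrc1 (-0.19), Ndufa8 (-0.08) and Atp5j (-0.04) were lower and Uqcr11 (0.09), Atp5g2 (0.11), Ndufa11 (0.15), Cox6a1 (0.15), Ndufa6 (0.21) and Atp5l (0.23) higher in parous cells.

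The partner genes in mitochondrial DNA did not share the lean of the nuclear members. Their 13 subunits summed to 10911 CPM in parous and 11725 CPM in virgin cells (log2 ratio -0.10), with 10 of 13 below 0. None was at least 1.5-fold higher (6.86% of all genes) and 1 was lower (15.1% of all genes). The ND5-antisense gene mt-Nd6, the single lower one, had 19.3 CPM in parous and 34.6 CPM in virgin cells (-0.84), and since it overlaps mt-Nd5 on the other strand and no label states the strand setting of the counting, its UMIs are uncertain. Among the other complex I subunits, mt-Nd1 had a log2 ratio of -0.08, mt-Nd2 -0.08, mt-Nd3 -0.30, mt-Nd4 0.08, mt-Nd4l -0.22 and mt-Nd5 -0.17. The complex III subunit mt-Cytb was at -0.17, and the complex IV core subunits were at -0.05 (mt-Co1), 0.02 (mt-Co2) and -0.16 (mt-Co3). In complex V, mt-Atp6 was at -0.25 and mt-Atp8, which overlaps it on the same strand, at 0.37. Under median-of-ratios scaling, which adds 0.13, the mtDNA-encoded sum would turn to the side of the nuclear members.

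As shares of UMIs, the nuclear and the mtDNA-encoded subunit genes ran opposite ways from naive or central memory-like to cycling cells. Cycling cells held more UMIs each, as given above, so a lower share does not mean fewer molecules per cell. The mtDNA-encoded subunits took 0.756% of UMIs in parous and 0.918% in virgin cycling cells, but 1.38% in parous and 1.39% in virgin naive or central memory-like cells. In tissue-resident memory-like cells they took 0.915% in parous and 0.925% in virgin cells.

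The surrounding pathways, from lists of textbook members, were mostly on the low side, near the median of all genes. The counts past 1.5-fold in this paragraph and the next stand beside 6.86% of all genes higher and 15.1% lower in parous cells. Electron carriers and the synthase inhibitor outside the rule had 0 of 6 past 1.5-fold and a median of -0.18. They ran from Etfb (-0.35), the beta chain of the electron transfer flavoprotein, to Cycs (-0.06), cytochrome c. All 6 were below 0, among them Cyc1, the complex III subunit outside the symbol rule. Of 52 assembly factors, which build the complexes and are not part of them, none was higher and 6 were lower in parous cells, with a median of -0.13. They ran from Taco1 (-0.96), a translational activator of mt-Co1, to Ttc19 (0.32), a complex III factor. Of 78 mitochondrial ribosomal proteins 3 were lower and none higher, from Mrps2 (-0.79) to Mrps7 (0.26), with a median of -0.14. The tricarboxylic acid cycle list had 0 of 19 past 1.5-fold and a median of -0.19, and ran from Sucla2 (-0.53), a succinyl-CoA ligase subunit, to Mpc2 (0.29), which forms the mitochondrial pyruvate carrier together with Mpc1 (0.25).

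Among 14 measured regulators of mitochondrial biogenesis Gabpb1, a subunit of nuclear respiratory factor 2, was higher in parous cells, with 60.8 CPM in parous and 37.6 CPM in virgin cells (0.69). Myc was lower, with 39.2 CPM in parous and 103 CPM in virgin cells (-1.39), as was Polrmt, the mitochondrial RNA polymerase (-0.65), and the median was -0.20. Ppargc1a, the coactivator PGC-1 alpha, had 4 parous and 9 virgin UMIs. The transport list had 0 of 13 past 1.5-fold and a median of -0.09, from Slc25a4 (-0.57), an ADP/ATP carrier, to Slc25a3 (0.29), the phosphate carrier. The peroxide defence and uncoupling list had the highest median, 0.22 over 9 genes, from Cat (-0.30) to Sod1 (0.73), the 1 gene of the list past 1.5-fold. Glycolysis had the lowest, -0.28 over 14 genes, from Slc2a3 (-0.57), a glucose transporter, to Hk2 (0.76), a hexokinase and the only one past 1.5-fold. Cytoplasmic ribosomal proteins, which like the members are short and abundant transcripts, had a median of 0.10 over 81 genes, from Rps29 (-0.56) to Rpl39l (2.35, from 42 parous and 12 virgin UMIs), and took 31.6% of UMIs in parous and 29.9% in virgin cells.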

How the data were processed

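Single-cell RNA was measured in 1 parous and 1 virgin library. What the authors deposited is a whole-number UMI count for each gene in each barcode. Per the file headers Cell Ranger 7.0.0 wrote it, and the submitters' processing notes give mm10 as the build and list R 4.4.2 and Seurat, with no step named for either. No source states how barcodes were called as cells.

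A barcode was kept from 500 genes and 1000 UMIs upward, if mitochondrial UMIs stayed under 10%, which left out 1908 parous and 15 virgin barcodes. Scrublet marked 2 parous and 11 virgin cells, under 0.5% of each library, and was taken not to have worked, so no cell was removed as a doublet. Clusters came from 2000 variable genes without members, receptor, ribosomal or mitochondrial genes, with virgin UMIs thinned to 58.7%, 30 principal components, 15 neighbours and Leiden resolution 0.8 (scanpy 1.11.5, leidenalg 0.10.2). A cluster was named with at least 3 fixed markers 2-fold up and in 10% of its cells, if its 10 leading genes held more of its own markers than of any other type. These naming thresholds were set after seeing the data. A cluster entered with at least 20 cells of a library.

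UMIs were summed per library and cluster, divided by the total for CPM, and log2 ratios had 0.5 added to each count. Genes with at least 20 UMIs over both libraries were measured, and at least 1.5-fold counts as called. Ratio intervals are exact (conditional binomial, Clopper-Pearson) and level intervals exact Poisson. Medians over a list have no test. Counts with Poisson error alone were simulated for 12632 genes, 200 of them changed. The ratios were recovered at 1.00 for a true log2 ratio of 1, and intervals held the true value for 95.8% of genes. Variation between cells or mice was not simulated.

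The members and lists were chosen with earlier results of these data known. Genes named with values were, in each complex, the most abundant, the extremes and those past 1.5-fold, with a fixed set of subunits and isoforms, and within a class the 3 largest and 3 smallest ratios. One subunit of the fixed set is not reported here. Other genes named were chosen after their values were seen, as were the promoter motifs. Of the 85 members 27 overlap a gene on the other strand and 1 (Ndufa13) on the same strand in GENCODE M21, and reads shared with processed copies of a gene cannot be separated here. Scripts ran in Python 3.11.15 with scipy 1.17.1, numpy 2.4.6 and pandas 2.3.3. The alternatives covered scaling, depth, cell filters, cells compared, resolution and the filter on low values.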

Additional observations from a re-analysis of the deposited data

Results flagged for a closer look

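The comparisons do not use the 1908 parous barcodes that failed the cell filter, yet these carried member UMIs: 2.05% of their UMIs came from the subunit genes, close to the 2.21% in the parous cells that were kept. These barcodes had a median of 600 UMIs, and 915 of them had a Cd3e UMI. The 15 virgin barcodes left out had 1.53%. The source of the member UMIs in the barcodes left out was not tested.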

How the results depend on the processing

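With 1 library a group no replicate could be left out, and no paired analysis was possible because each group has a single sample. The summed log2 ratio, 0.09 as reported, was 0.22 with median-of-ratios scaling, 0.13 with totals without mitochondrially encoded and ribosomal protein genes, 0.15 as a mean over cells, 0.15 with cells thinned to 1400 UMIs, 0.075 without a cell filter, 0.18 without cycling cells, 0.058 without clusters mostly of 1 library (3 and 5) and 0.16 without the 5% of cells with most UMIs. The median over members, 0.04 as reported, was 0.17, 0.070, 0.11, 0.10, 0.0091, 0.15, 0.0029 and 0.13 in the same settings and order, 0.046 without the low-UMI cluster and 0.047 with the same mix of clusters in both libraries. Both stayed above 0 in the 12 settings run, and the summed ratio stayed 0.20 to 0.29 above the median of all genes. Median-of-ratios scaling moved both by more than their size as reported. Members at least 1.5-fold lower numbered 3 as reported, 1 when thinned, where fewer UMIs pass the filter, 2 without cycling cells, with the same mix of clusters or without the 5% of cells with most UMIs, and 4 without a cell filter or without the filter on low values. Without the filter on low values 2 members, Cox7b2 and Ndufa4l2, counted as higher, from under 5 UMIs each in a library. For naive or central memory-like cells the log2 ratio of 0.06 was 0.081 at resolution 1.2 and 0.18 with median-of-ratios scaling among them. Atp5k stayed between -0.72 and -0.59 in the 12 settings, and complex II kept its side in 11 of 12, with 0.02 under median-of-ratios scaling. The virgin cells were deeper, and clusters of under 100 cells hold few UMIs of the rarer members, so single-gene ratios there are the least precise.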
